A study of Mus musculus with 3 samples.

Results

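The genes described here are the nuclear genes of oxidative phosphorylation, the respiratory chain and the ATP synthase of mitochondria. They were chosen by symbol alone, as every listed name of the Nduf, Sdh, Uqcr, Cyc1, Cox4 to Cox8 or Atp5 series, and mitochondrial-encoded genes were left out. The rule found 85 of the 32531 genes listed. By complex they numbered 37 in complex I, 4 in complex II, 9 in complex III, 19 in complex IV and 16 in complex V. Ndufa4 was counted in complex IV, where its protein sits despite its name. The names also took in 3 genes whose products are not subunits, Atp5sl (a complex I assembly factor), Cox7a2l (a supercomplex factor) and Atp5s (a factor coupled to the ATP synthase), and 7 isoforms of complex IV subunits made mainly in other tissues.

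The tissue was dentate gyrus of untreated adult mice on the C57BL/6J strain that carry the Penk-EGFP/Rpl10a (NIDA186) transgene. In these mice a fluorescent tag on the ribosomal protein Rpl10a is driven by Penk regulatory DNA, and tagged ribosomes are pulled down with an antibody, a method called TRAP. The 3 immunopurified libraries form 1 group, replicates 1 to 3, with 5348761, 19195559 and 11059982 counts on genes, so each gene was compared with other genes of its own library. The labels do not say whether they came from separate animals, and p-values then measure only the spread between these libraries, which may be technical.

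Oxidative phosphorylation works as a relay. Complex I takes electrons from NADH and complex II takes them from succinate, complex III passes them to cytochrome c, and complex IV hands them to oxygen. Complexes I, III and IV pump protons across the inner membrane, and complex V lets them back through its membrane ring while its head makes ATP. Neurons spend much of this ATP on ion pumps and synaptic transmission. Most subunits come from nuclear genes, whose promoters often carry motifs of NRF1, ETS factors such as GABP, and YY1.

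Promoters of the genes matched 70 of 85 in RefSeq's table (GRCm38.p6, 250 bases before to 50 after each start). The motif of NRF1, seen in capitals in the Sdha sequence shown here, lay in 17 of these 70 (24.3%), against 12.2% of 6245 promoters of tested genes and 5.19% of all 27025. The motif AANATGGC of YY1 lay in 18 (25.7%), against 10.7% of tested and 6.96% of all genes. The ETS motif CCGGAAG lay in 16 (22.9%), against 18.6% of tested and 9.93% of all genes. GGGCGGG, bound by SP factors, was found in 24 (34.3%), against 54.5% of tested and 27.9% of all genes, and TATAAA in 7 (10%), against 8.49% of tested and 15.7% of all genes. Both strands were read, a match is a description and not a binding site, and no test was made. The promoters of 3 genes that stood above the median gene are shown, each with a different set of motifs, and were chosen after their values were seen. They are those of Atp5b (chr10:128083057-128083356, plus strand), Cox8a (chr19:7217567-7217866, minus strand) and Sdha (chr13:74350191-74350490, minus strand). Each reads 5′ to 3′ on the gene's strand, and capitals mark the motif matches, which are SP and YY1 in Atp5b, ETS in Cox8a and NRF1 in Sdha.

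Atp5b: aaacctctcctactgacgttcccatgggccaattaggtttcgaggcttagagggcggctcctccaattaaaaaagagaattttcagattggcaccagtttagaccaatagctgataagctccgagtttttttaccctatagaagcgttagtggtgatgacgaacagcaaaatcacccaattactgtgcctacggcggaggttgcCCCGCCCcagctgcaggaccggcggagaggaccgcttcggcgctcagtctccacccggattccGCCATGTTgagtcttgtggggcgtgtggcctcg

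Cox8a: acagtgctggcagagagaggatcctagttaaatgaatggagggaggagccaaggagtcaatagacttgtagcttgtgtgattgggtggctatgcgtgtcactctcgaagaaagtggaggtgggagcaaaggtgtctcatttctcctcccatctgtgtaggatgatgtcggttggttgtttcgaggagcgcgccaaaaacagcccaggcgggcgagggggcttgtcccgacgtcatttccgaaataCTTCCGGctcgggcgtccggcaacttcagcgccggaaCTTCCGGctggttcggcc

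Sdha: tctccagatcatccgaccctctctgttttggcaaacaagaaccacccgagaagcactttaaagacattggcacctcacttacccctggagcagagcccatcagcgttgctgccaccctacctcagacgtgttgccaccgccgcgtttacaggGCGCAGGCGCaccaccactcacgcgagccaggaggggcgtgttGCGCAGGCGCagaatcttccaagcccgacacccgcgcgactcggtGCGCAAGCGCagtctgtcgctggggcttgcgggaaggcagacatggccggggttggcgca

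The Sdha window held 3 NRF1 matches, the Cox8a window 2 ETS matches and the Atp5b window 1 match each of SP and YY1.

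The alpha and beta genes of the ATP synthase head and several small subunits of cytochrome c oxidase stood far above the median gene, and complex I genes lay on both sides of it. A level, as given here, is log2 CPM per kilobase of exon (read counts scaled to a common library total with TMM) minus that of the median tested gene in the same library, so that 0 is the median gene. Each library pools purified RNA of many cells, so fewer cells of a type and less RNA per cell cannot be told apart. All libraries are immunopurified, so the yield of the pull-down and RNA carried over without the tag were not measured. Of the 85 genes, 56 had enough counts in the 3 libraries to be tested, and 11 of these 56 (19.6%) lay more than 1 log2 unit above the median gene at an adjusted p under 0.05 (limma TREAT, Benjamini-Hochberg). The same test called 9.6% of all 8156 tested genes. No member was called below it, against 3.59% of all tested genes, and none reached an unadjusted p under 0.05 in that direction in limma's test. The filter acts on counts while levels are per kb, so short genes that pass it have less room below the median gene. Members are short, with a median longest transcript of 1005 bases against 4112, so the 0 below cannot be read as a result about them. The effect of the filter on the share called above was not tested. Each of the 11 lay above the median gene in 3 of 3 libraries. By complex, they were 2 of 24 tested genes in complex I, 1 of 4 in complex II, 0 of 6 in complex III, 6 of 10 in complex IV and 2 of 12 in complex V. Of the 29 genes not tested, 27 had under 10 counts in replicate 1, while 21 had at least 100 in replicate 2 and 9 had at least 100 in replicate 3. The calls rest on the correction for gene length, since without it 3 of the 11 stayed called, Atp5a1, Atp5b and Sdha. The count also moved with single libraries, to 30 of 76 tested genes without replicate 1 (14.5% of all tested genes) and 6 of 53 without replicate 2 (7.29%).

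**Figure D1:**
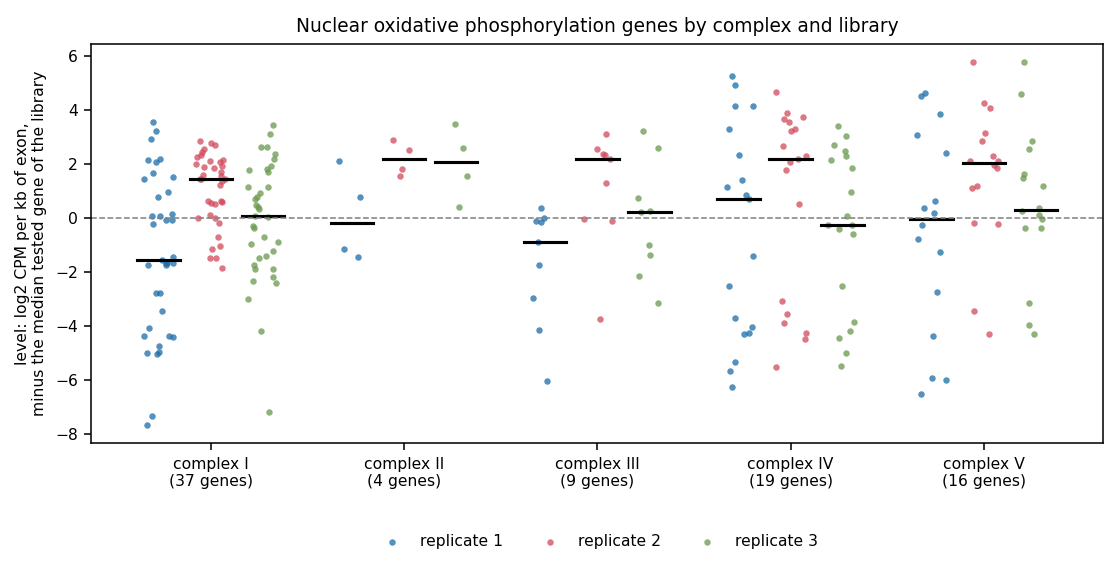
Levels of the 85 genes by complex in each library (points), with the median of the complex (bars) and the library's median tested gene at 0 (dashed line). Complex I medians were -1.57, 1.46 and 0.07 in replicates 1 to 3, and Atp5b and Atp5a1 lie between 3.85 and 5.78 in complex V.

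Complex V was led by the F1 head, which makes ATP. Atp5b, the catalytic beta subunit (chromosome 10, 128083273 to 128090391, plus strand, GRCm38), had 1437, 33616 and 16800 counts in replicates 1 to 3, or 80.0, 346 and 339 CPM per kb. Replicate 1 was the low one, and the gene still lay far above the median gene in each library. Its level was 5.13 (SE 0.49, adjusted p = 2.9e-05 in limma's test), the 48th highest of 8156 tested genes. Atp5a1, the alpha subunit (chromosome 18, 77773729 to 77782869, plus strand), had 1852, 8713 and 5526 counts, or 139, 121 and 151 CPM per kb. These values lay within 1.24-fold of each other, and its level was 4.50 (SE 0.43, adjusted p = 3.5e-05 in limma's test), 94th of the tested genes. The head holds equal numbers of both subunits. The ratio of Atp5b to Atp5a1 in CPM per kb was 0.574, 2.85 and 2.25, so Atp5b was the lower of the pair in replicate 1 and the higher in the other libraries.

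Other F1 genes were lower and less even. Atp5c1, the gamma subunit that turns inside the head, had 58, 4741 and 997 counts, and its level of 2.44 did not pass the test (SE 0.60, adjusted p = 0.0884 in limma's test). It passed without replicate 1, at a level of 3.97. Atp5d, the delta subunit, had 26, 636 and 392 counts. Atp5e, the epsilon subunit, had 0, 556 and 161 counts and was not tested. All 3 had their lowest level in replicate 1.

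Of the stalk and membrane genes, Atp5h (subunit d) had 289, 1532 and 237 counts, at a level of 2.36 that just missed the threshold (SE 0.50, adjusted p = 0.0558 in limma's test) and passed without replicate 1, at 2.50. Atp5o, which joins the stalk to the head, had 248, 1115 and 136 counts. Atp5f1, subunit b of the stalk, had 4, 2585 and 1727 counts. Its replicate 1 count compares with 479 expected there at the level of replicate 2, and it passed without replicate 1, at a level of 2.82. Atp5l, subunit g, was the lowest complex V gene, with 1, 44 and 22 counts. It was not tested with 3 libraries and was the 1 member called below the median gene when replicate 1 was left out. Atp5s, which is not a subunit, had 1099, 1085 and 112 counts, or 127, 23.2 and 4.70 CPM per kb, a range of 26.6-fold. It was high in replicate 1 and low in replicate 3, and it passed the test without replicate 3, at a level of 3.32.

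Complex IV, cytochrome c oxidase, had 6 of 10 tested genes called. This count was 0 of 10 without the length correction and 3 of 10 without replicate 2. Cox8a, a small subunit (chromosome 19, 7215153 to 7217616, minus strand), had 561, 2275 and 366 counts, or 214, 160 and 50.6 CPM per kb. In replicate 1 it stood above Atp5a1 and Atp5b, and in replicate 3 well below them. Its level was 4.32 (SE 0.49, adjusted p = 0.00016 in limma's test), 108th of the tested genes. Cox7a2, a subunit that takes part in dimers and supercomplexes, had 390, 1735 and 304 counts, or 97.4, 80.2 and 27.6 CPM per kb, and Cox7a2l had 615, 979 and 702 counts, or 98.1, 28.9 and 40.6 CPM per kb. Their levels were 3.32 (SE 0.48, adjusted p = 0.0022) and 3.02 (SE 0.48, adjusted p = 0.0060) in limma's test. Both were high in every library, and neither was above the other in all of them.

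The other called genes of complex IV are small subunits around the catalytic core. Cox6a1 had 36, 1507 and 532 counts, or 12.1, 93.7 and 64.8 CPM per kb, and a level of 2.81 (SE 0.53, adjusted p = 0.0204 in limma's test). Cox7c had 134, 2239 and 292 counts, or 27.9, 86.4 and 22.1 CPM per kb, and a level of 2.65 (SE 0.49, adjusted p = 0.0208 in limma's test). Cox7b had 75, 2093 and 493 counts, or 14.6, 75.3 and 34.7 CPM per kb, and a level of 2.49 (SE 0.50, adjusted p = 0.0382 in limma's test). All 3 were highest in replicate 2, and none was called without it, at levels of 2.19 for Cox6a1, 2.01 for Cox7c and 1.87 for Cox7b. Without replicate 3, Cox6a1 and Cox7b also lost the call at levels of 2.64 for Cox6a1 and 2.61 for Cox7b. Cox7c and Cox7a2l are uncertain in another way, since 22.1 and 13.8% of their 50-base words also occur in transcripts of another gene. Reads on such stretches may be split between copies or left out as aligned to several places. Of the 85 genes, 13 (15.3%) shared at least 10% of their words, against 6.88% of all tested genes. Among them were also Atp5h (19.9%), Atp5o (17.1%), Ndufb9 (15.6%) and Cox5b (11.9%).

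Several common subunits of complex IV had few or no counts in replicate 1. Cox5a, which binds the mitochondrial-encoded core, had 0, 1054 and 124 counts, where the level of replicate 2 would give 195 in replicate 1. Cox6c had 1, 2212 and 195 counts, where that level would give 410. Ndufa4 had 5, 1280 and 487 counts and spanned 42.0-fold, the widest range among the tested members with a mean of at least 10 CPM. Untested members such as Cox6c, at 1 count in replicate 1, reached lower. Cox6b1, which lies on the intermembrane side, had 165, 972 and 41 counts, low in replicate 3 instead, and its level of 2.10 did not pass (SE 0.63, adjusted p = 0.210 in limma's test). Cox5b had 61, 2309 and 119 counts. All 5 were highest in replicate 2 in CPM per kb, and they differed in which library was lowest. Leaving out replicate 1 made Ndufa4 pass at a level of 2.97 and Cox5b at 2.19, and leaving out replicate 3 made Cox6b1 pass at 3.41.

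**Figure D2:**
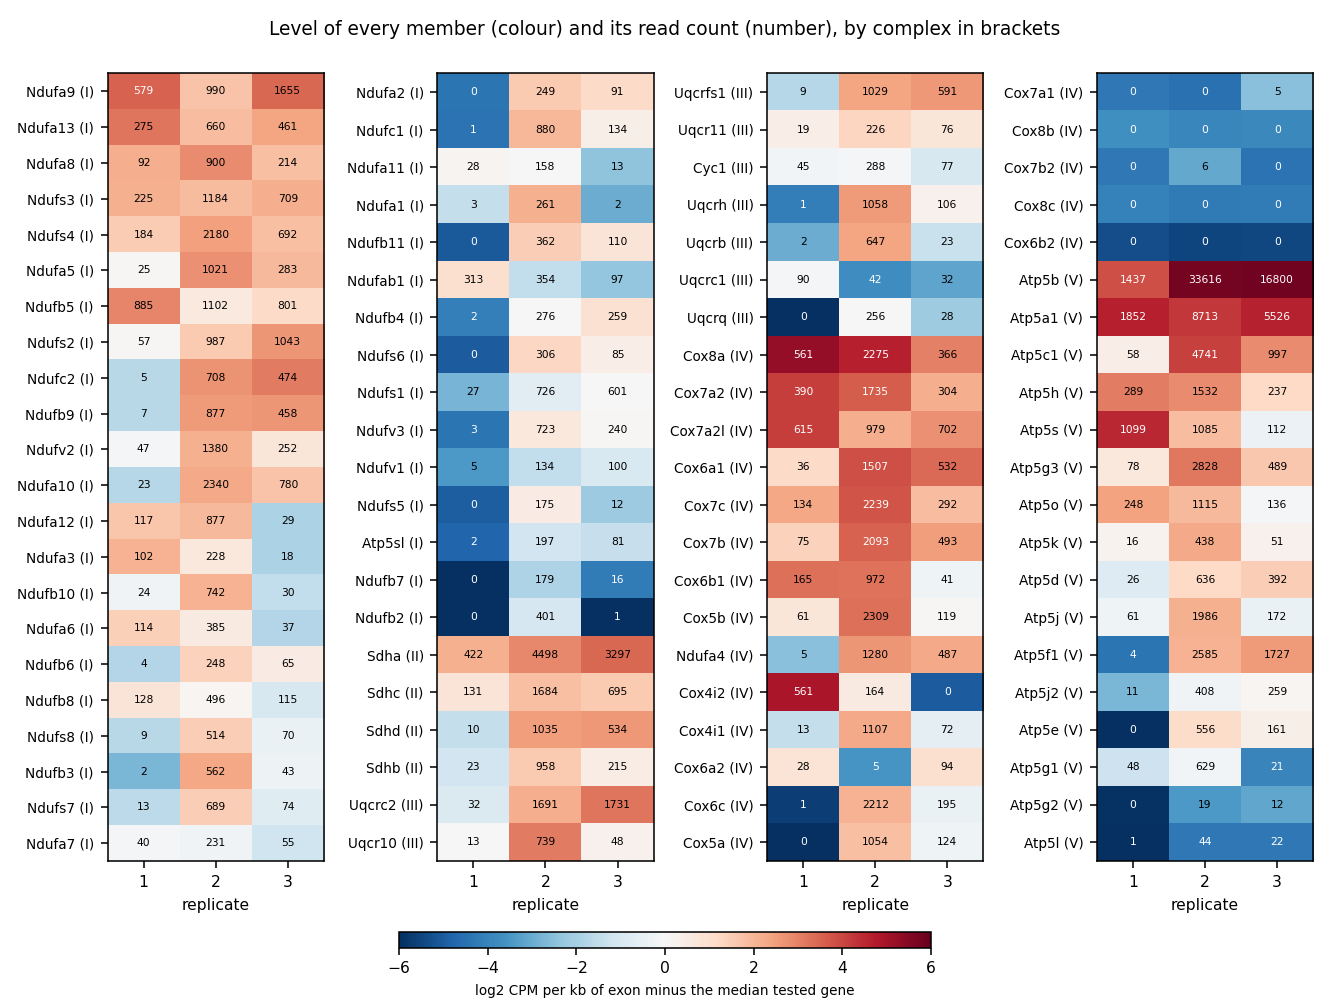
Level of each of the 85 genes by library (colour, log2 CPM per kb minus the median tested gene) with its read count (number). Dark blue fields with 0 to 4 counts are most frequent in the column of replicate 1, as for Cox5a, Cox6c, Atp5e and Atp5f1.

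Most complex IV isoform families were dominated by the form that is common to all tissues. Cox8b and Cox8c, the muscle and testis forms of Cox8a, had 0 counts in 3 of 3 libraries. So did Cox6b2, a testis form of Cox6b1. A count of 0 allows up to 3 counts, or 0.707, 0.131 and 0.257 CPM in replicates 1 to 3, and such limits cover counting error only. With 3 counts in place of 0, Cox8a exceeded Cox8b by at least 6.48, 7.66 and 5.48 log2 units per kb in replicates 1 to 3, and Cox6b1 exceeded Cox6b2 by at least 6.15, 7.87 and 3.80. Cox7a1, the heart and muscle form of Cox7a2, had 0, 0 and 5 counts, and Cox7b2, a testis form of Cox7b, had 0, 6 and 0. The differences between isoforms are given by their values, with no test.

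The Cox4i family did not follow that order in every library, and in the Cox6a family the muscle form came close in replicate 1. Cox4i1, the common form of subunit 4, had 13, 1107 and 72 counts, or 1.98, 31.2 and 3.97 CPM per kb. Cox4i2, a form known from lung and from pericytes of brain vessels, had 561, 164 and 0 counts, or 168, 9.09 and 0 CPM per kb. Cox4i1 minus Cox4i2 was thus -6.34 log2 units in replicate 1 and 1.75 in replicate 2, and at least 2.96 in replicate 3 with 3 counts in place of 0. The direction of this difference turned between libraries. Cox6a1 minus Cox6a2, the heart and muscle form with 28, 5 and 94 counts, was 0.31, 7.42 and 2.43 log2 units, positive in 3 of 3 libraries.

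Markers of pericytes and mural cells had their highest sum in replicate 2 and their lowest in replicate 3, as did granule cell markers. Rgs5 gave the largest part of this sum in replicates 1 and 2, at 370 and 747 CPM. The summed level over the 8 marker genes was 651, 1133 and 186 CPM in replicates 1 to 3, with 1 of 5 tested genes above the median gene. Rgs5 had 1570, 17115 and 785 counts, Kcnj8 had 1, 760 and 0, Higd1b had 0, 262 and 10 and Ndufa4l2 had 1, 61 and 0. Abcc9 had 985, 4952 and 1058 counts, Pdgfrb had 101, 709 and 89, Vtn had 95, 1456 and 87, and Acta2 had 7, 627 and 141. In replicate 1, where Cox4i2 was highest, Rgs5, Abcc9, Pdgfrb and Vtn were detected and Kcnj8, Higd1b and Ndufa4l2 were at or near 0. The sum was highest in replicate 2, where Cox4i2 was at 9.09 CPM per kb against 168 in replicate 1. It was lowest in replicate 3, where Cox4i2 was at 0. The 5 markers of endothelial cells, also part of vessels, summed to 50.2, 181 and 371 CPM in replicates 1 to 3. That sum was thus lowest in replicate 1, where Cox4i2 was highest, and highest in replicate 3, where Cox4i2 was at 0. The part of either list of markers in the level of Cox4i2 was not tested.

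The c ring of complex V is coded by 3 genes that give the same mature protein. Atp5g3 had 78, 2828 and 489 counts, or 8.43, 56.6 and 19.2 CPM per kb. Atp5g1 had 48, 629 and 21 counts, or 2.30, 5.59 and 0.366 CPM per kb. Atp5g2 had 0, 19 and 12 counts. Atp5g3 exceeded Atp5g1 in 3 of 3 libraries, by 1.86, 3.33 and 5.60 log2 units per kb, with a mean of 3.60 ± 1.88 (SD, n = 3). Its own level of 1.80 did not pass the test (SE 0.54, adjusted p = 0.291 in limma's test) and did without replicate 1, at 2.89. It exceeded Atp5g2 by at least 4.05 in replicate 1 with 3 counts in place of 0, by 6.59 in replicate 2 and by 4.77 in replicate 3. Atp5g1 and Atp5g2 changed order in replicate 3. Atp5g2 is uncertain, since 38.3% of its 50-base words occur in another gene's transcripts, and so do 10.2% of those of Atp5g1.

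**Figure D3:**
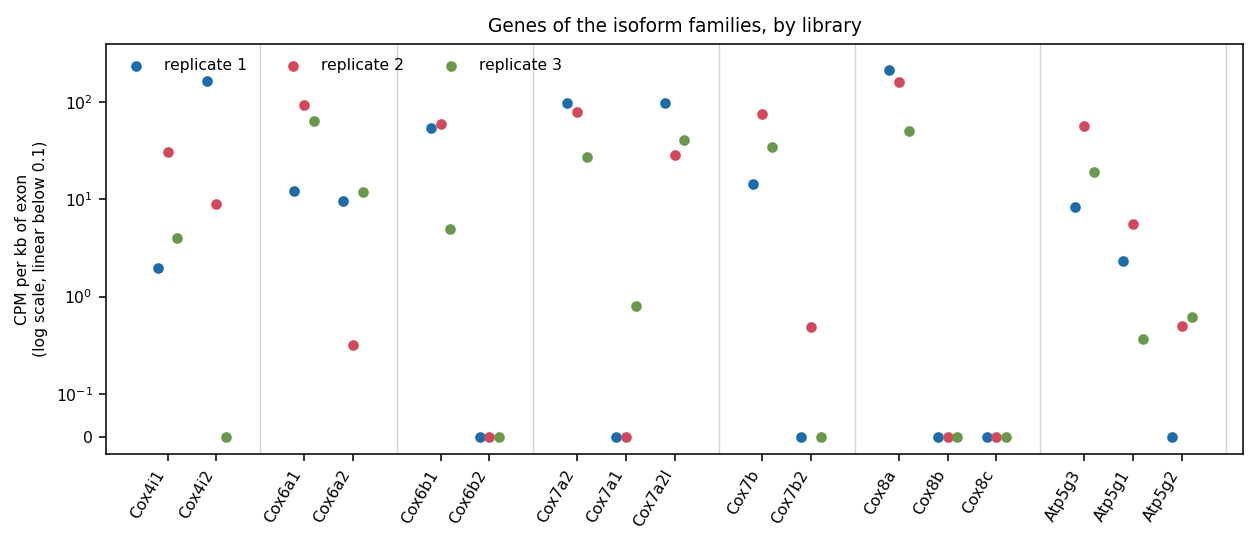
Genes of the complex IV isoform families and the c ring, in CPM per kb of exon (log scale, linear below 0.1), 1 point per library. Cox8b, Cox8c and Cox6b2 lie at 0 in 3 of 3 libraries, and the order of Cox4i1 and Cox4i2 turns between replicate 1 and replicate 2.

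In complex I, the largest complex, 14, 29 and 20 of 37 genes lay above the median gene in replicates 1 to 3. Ndufa9, an accessory subunit of its matrix arm (chromosome 6, 126821721 to 126849136, minus strand), had 579, 990 and 1655 counts, or 65.0, 20.6 and 67.4 CPM per kb. Its level was 2.90 (SE 0.49, adjusted p = 0.0094 in limma's test). Ndufa13, also known as GRIM-19, had 275, 660 and 461 counts, or 51.8, 23.0 and 31.5 CPM per kb, with a level of 2.48 (SE 0.47, adjusted p = 0.0293 in limma's test). Both were lowest in replicate 2, unlike most of the 85. Without replicate 3 both lost the call, at levels of 2.75 for Ndufa9 and 2.67 for Ndufa13, and without replicate 2 so did Ndufa13, at 2.70.

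Some complex I genes were even across libraries without passing the test. Ndufs3, a core subunit of the arm that reduces quinone, had 225, 1184 and 709 counts, or 24.4, 23.7 and 27.9 CPM per kb. Its range of 1.17-fold was the smallest among the tested members with a mean of at least 10 CPM. Its level was 2.07 (SE 0.46, adjusted p = 0.101 in limma's test). It shares 16.1% of its 50-base words with another gene. Ndufa8 had 92, 900 and 214 counts, at a level of 2.28 (SE 0.47, adjusted p = 0.0550 in limma's test), and Ndufs4, whose loss causes a Leigh-like disease in mice, had 184, 2180 and 692 counts, at a level of 1.94 (SE 0.48, adjusted p = 0.161 in limma's test). They spanned 2.14-fold and 2.19-fold. Leaving out replicate 1 made all 3 pass, at levels of 2.53, 2.81 and 2.64 for Ndufs3, Ndufa8 and Ndufs4.

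Other complex I genes moved widely. Ndufc2 had 5, 708 and 474 counts, a 30.5-fold range, and Ndufb9 had 7, 877 and 458 counts, a 21.8-fold range. Both are accessory subunits of the membrane arm, and both passed without replicate 1, at levels of 3.40 for Ndufc2 and 3.08 for Ndufb9. Ndufb7 and Ndufb2, also of that arm, were the lowest, with 0, 179 and 16 counts for Ndufb7 and 0, 401 and 1 for Ndufb2. The 7 core genes had median levels of -1.57, 1.46 and 0.05 in replicates 1 to 3, and the 29 accessory genes had -1.43, 1.46 and 0.33, so core and accessory genes stood close to each other in each library. None of the 7 core genes and 2 of 17 tested accessory genes (11.8%) were called above, against 9.6% of all tested genes. These sets are small, and the shares were not tested against each other.

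Complex II is the enzyme shared with the citrate cycle, and all 4 of its genes were tested. Sdha, its flavoprotein (chromosome 13, 74322254 to 74350280, minus strand), had 422, 4498 and 3297 counts, or 24.1, 47.6 and 68.4 CPM per kb. Its level was 2.83 (SE 0.46, adjusted p = 0.0081 in limma's test), and the call was lost without replicate 2, at 2.71, and without replicate 3, at 2.64. Sdhb, the iron-sulphur subunit, had 23, 958 and 215 counts and the lowest mean of the 4. Sdhc and Sdhd, the membrane anchors, had 131, 1684 and 695 counts and 10, 1035 and 534 counts. Leaving out replicate 1 made both anchors pass, at levels of 2.19 for Sdhc and 3.05 for Sdhd.

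Complex III had 6 tested genes and none was called. Uqcrc2, a core protein (chromosome 7, 120635176 to 120659524, plus strand), had 32, 1691 and 1731 counts, or 2.96, 28.9 and 58.0 CPM per kb. Uqcrfs1, the Rieske iron-sulphur protein, had 9, 1029 and 591 counts, a range of 22.3-fold. Uqcr10, a small subunit, had 13, 739 and 48 counts. All 3 were below or at the median gene in replicate 1 and above it in the other libraries, and all 3 passed when replicate 1 was left out, at levels of 3.20 for Uqcrc2, 2.98 for Uqcrfs1 and 2.17 for Uqcr10. Uqcrc1, the partner of Uqcrc2, was highest in replicate 1 instead, with 90, 42 and 32 counts, or 5.13, 0.443 and 0.662 CPM per kb. Its level was -2.33 (SE 0.86, adjusted p = 0.270 in limma's test), so the 2 core proteins differed in order between replicate 1 and the others. Cyc1, cytochrome c1, stayed within 1.89-fold, at 45, 288 and 77 counts. Uqcrh, the hinge protein, had 1, 1058 and 106 counts, where replicate 2 would give 196 in replicate 1.

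Over all 85 genes the 3 libraries gave median levels of -0.77, 1.83 and 0.25, which average 0.44 ± 1.31 (SD, n = 3). By complex the 3 medians were -1.57, 1.46 and 0.07 for complex I, -0.19, 2.18 and 2.08 for complex II, -0.88, 2.18 and 0.24 for complex III, 0.72, 2.18 and -0.26 for complex IV and -0.03, 2.03 and 0.30 for complex V. Replicate 2 gave the highest median in each complex. Counting only the 11 common subunits of complex IV, its medians were 1.15, 3.32 and 1.85. Leaving out genes with near copies, the average over libraries of the complex IV median was -0.12, against 0.88 with them. The genes above the median gene numbered 35, 64 and 48 of 85, and 24 (28.2%) lay above it in 3 of 3 libraries. The direction of the median over all 85 depended on replicate 2, without which it was -0.32. The medians of complexes I and III also fell below 0 without it, at -0.81 and -0.39. It depended on gene length too, since the average over all 85 was -1.35 without that correction.

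The genes took 0.225% of gene counts in replicate 1 (95% Wilson interval 0.221 to 0.229), 0.624% in replicate 2 (0.620 to 0.627) and 0.439% in replicate 3 (0.435 to 0.443). Complex V held 43.5, 50.9 and 55.8% of the counts on the 85 genes, and Atp5a1 and Atp5b alone held 27.4, 35.4 and 45.9%. Complex IV held 22.0, 16.7 and 7.87%. The ATP synthase thus made up the largest part in each library, and complex IV the smallest in replicate 3 apart from complex III.

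**Figure D4:**
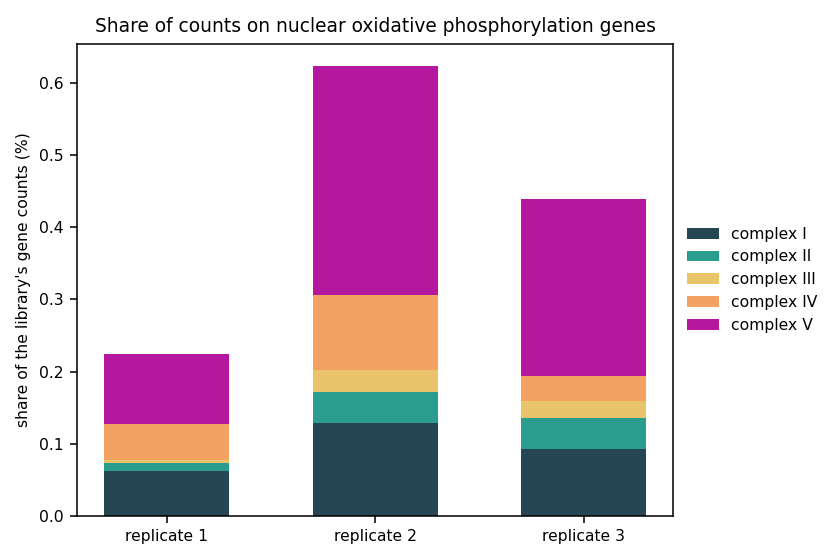
Share of each library's gene counts that fell on the 85 genes, stacked by complex, in percent. The bars reach 0.225, 0.624 and 0.439% in replicates 1 to 3, and complex V is the tallest block in each.

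In the median, these genes spanned a wider range between libraries than all tested genes. All 56 tested varied beyond sampling noise, as did 97.5% of all tested genes (Poisson chi-square, adjusted). A range of at least 4-fold was seen in 40 of 56 (71.4%), against 44.6% of all tested genes, and the median range was 6.62-fold against 3.54-fold. Wide ranges were not particular to these genes. Mitochondrial ribosomal protein genes had 19 of 29 (65.5%) and a median of 5.81-fold. Other genes of the pathway, such as assembly factors, had 20 of 35 (57.1%) and 5.15-fold. Citrate cycle enzyme genes had 6 of 13 (46.2%) and 2.90-fold. The lowest level of a gene fell in replicate 1 for 29 of the 56 (51.8%), against 38.8% of all tested genes. The highest fell in replicate 2 for 25 of the 56 (44.6%), against 28.3% of all tested genes. In replicate 1, 15 genes had 0 counts, 9 of them with at least 100 counts in replicate 2. Across the 56 tested genes, levels in replicates 2 and 3 had a Spearman correlation of 0.67, with 0.37 for replicates 1 and 2 and 0.25 for replicates 1 and 3. Over all 8156 tested genes the same values were 0.78, 0.59 and 0.55. Genes of a library share its depth and are not replicates, so these correlations only describe the libraries.

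These genes are short, and in replicate 1 short genes of other kinds had few counts at like shares. The median longest annotated transcript was 1005 bases, against 4112 in all tested genes, and 41 of 85 (48.2%) were under 1 kb, against 2.04% of tested genes. Among genes at 10 CPM or more in replicate 2, those with under 10 counts in replicate 1 were 22 of 68 members (32.4%), against 1261 of 7554 other genes (16.7%). In transcripts under 1 kb the shares were 11 of 29 (37.9%) for members and 62 of 151 (41.1%) for other genes, and from 1 to 2 kb they were 7 of 25 (28%) for members and 238 of 723 (32.9%) for other genes. At 2 kb or more they were 4 of 14 (28.6%) for members and 961 of 6680 (14.4%) for other genes, and none of these differences was tested. In the median, levels in replicate 1 also lay further below those of replicate 2 in members than in other genes of each length class. Members and other genes were both selected at 10 CPM or more in replicate 2, which by itself lowers such differences. The median difference, replicate 1 minus replicate 2, was -2.71 for members and -2.22 for other genes under 1 kb, -2.13 for members and -1.91 for other genes from 1 to 2 kb, and -1.55 for members and -0.29 for other genes at 2 kb or more. In replicate 3 the shares over any length were 2 of 68 (2.94%) for members and 209 of 7554 (2.77%) for other genes. Under 1 kb they were 1 of 29 (3.45%) for members and 22 of 151 (14.6%) for other genes. From 1 to 2 kb they were 0 of 25 and 46 of 723 (6.36%). At 2 kb or more they were 1 of 14 (7.14%) and 141 of 6680 (2.11%). Median differences, replicate 3 minus replicate 2, were -1.67 for members and -1.04 for other genes under 1 kb. They were -0.76 and -1.01 from 1 to 2 kb, and -0.41 and -0.074 at 2 kb or more.

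**Figure D5:**
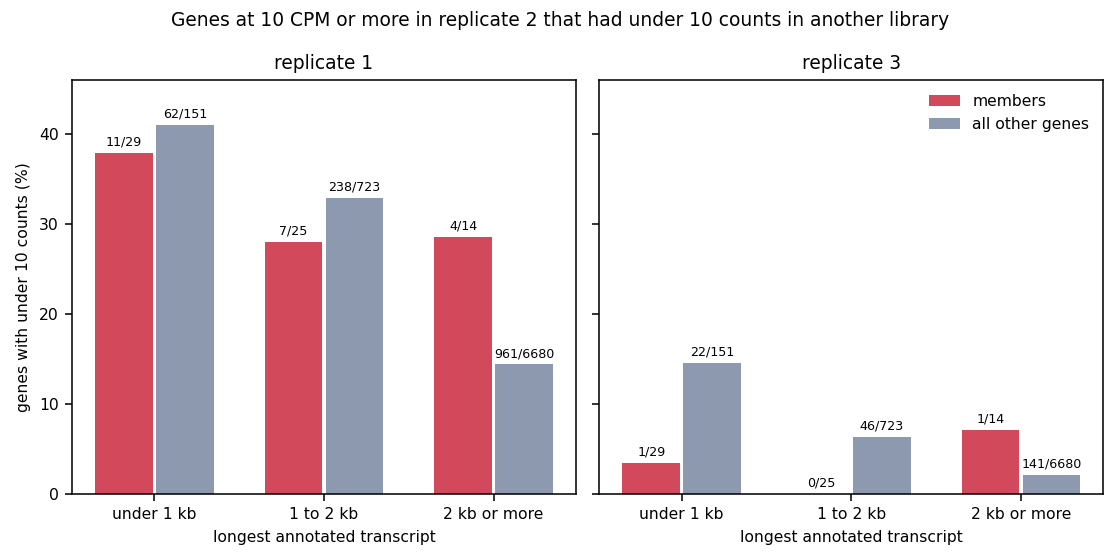
Percent of genes at 10 CPM or more in replicate 2 that had under 10 counts in replicate 1 (left) or replicate 3 (right), by longest annotated transcript, for the 85 genes (members) and all other genes, with counts over the bars. In replicate 1, members under 1 kb reach 37.9% and other genes of that length 41.1%.

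Of 68 other genes of the pathway, 67 had a row and 35 were tested, and 2 of these were called above the median gene and 0 below. Slc25a4, the ADP and ATP carrier of the inner membrane, had 387, 17784 and 6748 counts, or 38.8, 330.0 and 245 CPM per kb, at a level of 4.60 (SE 0.54, adjusted p = 0.00019 in limma's test). Ppargc1a, the coactivator of mitochondrial gene programmes, had 824, 6036 and 3891 counts, or 29.5, 40.0 and 50.5 CPM per kb, at a level of 2.70 (SE 0.44, adjusted p = 0.0107 in limma's test). Slc25a4 shared the pattern of Atp5b, low in replicate 1, while Ppargc1a lay close to even. The lowest carrier was Vdac3, a pore of the outer membrane, with 53, 841 and 632 counts. The lowest regulator was Yy1, with 13, 393 and 114 counts.

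Most of these genes are assembly factors, which build the complexes and are not part of them. Median levels of the 67 genes were -3.17, -0.26 and -0.57 in replicates 1 to 3, below those of the 85 genes in each. Ttc19, needed for complex III, had 796, 2399 and 1221 counts, at a level of 2.17 that did not pass (SE 0.47, adjusted p = 0.0802 in limma's test), and Bcs1l, which inserts the Rieske protein, had 0, 212 and 9. Coa5, needed for complex IV, had 406, 2425 and 1431 counts and was the highest of its list, and Cox19 was the lowest with any count, at 0, 49 and 0. Atpif1, the inhibitor of the ATP synthase, had 67, 2258 and 142 counts, and Atpaf2, which assembles its head, had 98, 128 and 51. For complex I, Ndufaf4 had 67, 851 and 491 counts and Foxred1 had 11, 120 and 0, and for complex II, Sdhaf4 had 0, 361 and 108 and Sdhaf1 had 0, 39 and 0. Nubpl, which supplies iron-sulphur clusters to complex I, and Sco2, which supplies copper to complex IV, had 0 counts in 3 of 3 libraries.

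Next to other mitochondrial genes, the 77 genes of mitochondrial ribosomal proteins had median levels of -3.80, -0.0038 and -1.78, with 0 of 29 tested called above, and 15 citrate cycle enzyme genes had -0.58, 1.69 and 0.99, with 2 of 13. Both lists were also lowest in replicate 1 and highest in replicate 2. They are descriptions without a test, and the lists were chosen after the data were seen.

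Across the libraries, 16.3, 38.2 and 21.1% of reads fell on genes in replicates 1 to 3. Of the markers of the labelled tissue, 3 of 5 tested granule cell genes and 5 of 5 pan-neuronal genes were called above the median gene. The granule cell markers summed to 1750, 1915 and 993 CPM in replicates 1 to 3, although Calb1 had 2 counts in replicate 1, and the pan-neuronal markers to 7479, 12702 and 8049 CPM. Markers of astrocytes summed to 3070, 1366 and 3232 CPM and those of oligodendrocytes to 877, 733 and 1204 CPM, with 1 of 5 and 3 of 5 tested genes called above. Microglial markers summed to 3.30, 6.59 and 20.9 CPM. Granule cell and pan-neuronal sums were thus highest and astrocyte and oligodendrocyte sums lowest in replicate 2, where the 85 genes had their highest medians. Snap25 made up most of the pan-neuronal sum, at 5316, 10871 and 5338 CPM. Syt1 was also highest in replicate 2, but Rbfox3 and Eno2 in replicate 1 and Map2 in replicate 3. Of the granule cell markers, Prox1 and C1ql2 were highest in replicate 1, Dsp in replicate 3 and the others in replicate 2. GABAergic markers summed to 292, 239 and 346 CPM, lowest in replicate 2. The part of cell types in the levels given here was not tested.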

How the data were processed

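RNA from ribosomes purified from the dentate gyrus was sequenced in 3 libraries of 1 group. The deposited files hold raw read counts per gene symbol, 1 file per library, made by the authors with STAR 2.0.0e, HTSeq and the mm10 genome per the submitters' processing notes. The annotation and the strand setting are not given in the sources used here, so reads of overlapping or antisense genes cannot be told apart. The counter's summary rows entered neither library sizes nor tests.

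Counts were scaled with TMM in edgeR 4.0.16 (R 4.3.3; factors 0.793, 1.19 and 1.06), with a prior count of 2, and divided by the union of exons (GENCODE vM21 on GRCm38). filterByExpr kept 8510 of 32531 genes and 8156 (95.8%) had a length. All 85 members had one. Levels relative to the median tested gene (5.55, 6.39 and 6.18 CPM per kb) went into limma 3.58.1 (intercept only, mean-variance trend, TREAT at 1 log2 unit, Benjamini-Hochberg over 8156 genes, threshold 0.05). Variation was tested with a Poisson chi-square on counts. Both were tested on simulated data.

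Named were the 3 highest and the lowest gene of each complex by mean CPM per kb, isoform families and called genes. Also named were the 5 widest and 5 narrowest ranges of tested members at a mean of at least 10 CPM. Other genes were added after their values were seen. Members and lists were chosen with earlier results of these data known. Alternatives were no length correction, longest transcript, size factors of DESeq2 1.42.0, all genes with any count, 0.5 as prior count, library totals that omit mitochondrial-encoded and ribosomal protein genes, and the omission of each replicate. Raising counts below 3 to 3 and leaving out genes with near copies were chosen after seeing the data. Intervals and limits on counts of 0 cover counting error alone, because reads copied by PCR are not separate molecules. Figures were drawn with matplotlib 3.10.9.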

Additional observations from a re-analysis of the deposited data

How the results depend on the processing

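Without the correction for gene length, 3 genes were called above the median gene (13.97% of all tested) and 2 below, and median levels were -1.35 over all 85 genes, -1.58 for complex I, -1.91 for complex III, -1.10 for complex IV and -0.53 for complex V. Levels of single genes were followed over the alternatives for a part of the members only, so this list may be incomplete. Among them, positive levels turned negative without the length correction for Cox4i1 (-1.67), Cox6a1 (-0.099), Cox6b1 (-0.80), Ndufa4 (-1.12) and Ndufa8 (-0.34). The same held for Ndufb9 (-1.18), Ndufc2 (-1.42), Sdhb (-0.96), Sdhd (-0.87), Uqcr10 (-2.06) and Uqcrfs1 (-0.87). That alternative drops the division by exon length and changes nothing else. Without the filter on low counts the median gene is lower, and 36 of 82 genes were called above it (17.7% of all tested), with medians of 2.37 over all genes and 1.93, 3.30, 2.45, 2.82 and 2.71 for complexes I to V. Leaving out each replicate in turn gave 6 to 30 genes called above and 0 to 1 below. Of the 11 genes, 5 were called in every such fit (Atp5a1, Atp5b, Cox7a2, Cox7a2l and Cox8a). Over these fits the level of Cox4i1 lay between -1.07 and 1.34 and that of Sdhb between -0.44 and 1.48, with the lowest value without replicate 2. DESeq2 size factors, the prior count and the other library size left the 11 calls as they were, and the longest transcript as length kept 9 of them. Leaving out genes with near copies gave complex IV a median of -0.12. No paired analysis was possible because the libraries form 1 group. The depth of replicate 1 limits all statements on genes with few counts there.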
